A study of Mus musculus with 35 samples.

Results

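Simple tandem repeats are stretches of DNA in which a short motif follows itself head to tail, and in the repeat table of this series each motif forms a row of its own, such as (CA)n for CA repeated n times. The rows described here are those whose name is a motif written only with A, C, G and T and whose mean estimated count over all samples was at least 10. They number 1590, out of 17169 simple repeat rows and 18536 repeat rows in all, and 8249 of the simple repeat rows had a count in any sample. Just outside this minimum lay (GAGGT)n with a mean of 9.94, (AGT)n with 9.96 and (CTTTCTT)n with 9.97, and just inside it (CCTGCCC)n with 10.0, (GGAGGCA)n with 10.0 and (AGCCCA)n with 10.1. The rule used the mean over all samples and no difference between groups.

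The series holds RNA-seq of 35 mouse samples of wild-type C57BL/6NRj. Zygotes were injected with water (ctrl, n = 10) or with Kdm5b-yfp mRNA at about 1150 ng/µl (Kdm5b, n = 10), and 2-cell embryos (2C) likewise with water (n = 9) or with that mRNA (n = 6). KDM5B is an enzyme that removes methyl groups from histone H3 lysine 4. Zygotes were collected 17 h after ovulation, and 2C embryos between 5.5 and 8 h after they had divided. The 2C embryos came from frozen and thawed zygotes, with libraries prepared on a different day, so that stage, thawing and day of preparation cannot be told apart here. Of the 2C samples, 6 control and 5 Kdm5b samples were single intact embryos, and the others were pools of 2 or 3 blastomeres. A count of RNA cannot tell fewer transcripts from fewer cells or less RNA per cell.

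Simple repeats arise mostly by slippage of the DNA polymerase, and in mammals those of CA are the most common. Units of 3 or 6 letters keep the reading frame when their number changes, and so they are the kind found in coding sequence, where CAG repeats encode runs of glutamine. RNA of the oocyte is degraded after fertilization while the embryo begins to transcribe its own genome, in the mouse mainly at the 2-cell stage, and much of this early RNA comes from transposable elements. A row such as (CA)n pools all copies of its motif in the genome, in exons, introns and intergenic sequence alike, and its count depends on how many copies there are and how long they are. Counts of different rows were therefore not compared as levels of expression, only as numbers of fragments.

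Motifs that repeat the same letters in another phase, such as (ATT)n, (TTA)n and (TAT)n, or on the other strand, are rows of their own. A read that matches several such rows is divided among them by the estimate of the counting tool, and the part of this division in the differences between rows of 1 unit was not tested. The sequences that follow show what such rows hold, 1 run each from GENCODE M21 transcripts (GRCm38), written 5′ to 3′ on the forward strand, with the first copy of the motif in capitals. The first pair are those of (ATT)n and (TAT)n, which share a unit and whose estimated counts changed in opposite directions between the stages, (ATT)n from a retained-intron transcript of Pdlim3 (chr8:45901020-45901067) and (TAT)n from one of Mbnl1 (chr3:60624745-60624791), both on the strand shown.
(ATT)n in Pdlim3: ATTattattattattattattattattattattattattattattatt
(TAT)n in Mbnl1: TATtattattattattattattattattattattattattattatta
The next pair are (AGC)n, the row with the most counts, in the coding sequence of D6Ertd527e (chr6:87111940-87111977), and (GGC)n, the second in counts, in the coding sequence of Zxdb (chrX:94724987-94725028), both genes on the forward strand.
(AGC)n in D6Ertd527e: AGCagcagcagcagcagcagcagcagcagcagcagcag
(GGC)n in Zxdb: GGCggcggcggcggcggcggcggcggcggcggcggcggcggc
The third set are rows with large changes between the stages. (TGGGGCAGC)n, which rose in both injections, had a perfect run in 1 annotated transcript within the search limits given below. That transcript was the lincRNA Gm6507 on the reverse strand (chr6:89184730-89184776). (CCCCA)n, which fell, is shown from Gm49413, a transcript awaiting experimental evidence on the forward strand (chr15:76578738-76578764), and (CGCAGC)n, which fell as well, from the 5′ UTR of Rbm24 on the forward strand (chr13:46418983-46419002).
(TGGGGCAGC)n in Gm6507: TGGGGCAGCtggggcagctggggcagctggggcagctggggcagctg
(CCCCA)n in Gm49413: CCCCAccccaccccaccccaccccacc
(CGCAGC)n in Rbm24: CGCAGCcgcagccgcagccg

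Each sample held between 4131205 and 7284589 repeat counts, of which between 518334 and 1068634 fell on the 1590 rows, and between 8705137 and 17797439 gene counts without Kdm5b. Values are given below as counts per 1000000 gene counts without Kdm5b (gene-scaled CPM) or per 1000000 repeat counts (repeat-scaled CPM). These totals are large for a class and small for many single rows, whose median mean count was 75.6. The Kdm5b row took 2.30% to 10.4% of gene counts in Kdm5b zygotes and 8.27% to 15.8% in Kdm5b 2C samples, against at most 0.00137% in control zygotes and 0.0189% in control 2C samples. Summed over 10 oocyte and zygote markers, gene-scaled CPM ran from 6143 to 8265 in zygotes and from 3110 to 5423 in 2C samples. Summed over the 7 of 8 listed 2-cell markers in the table they ran from 4.37 to 38.0 and from 152 to 700. Of these markers, Tdpoz3 and Gm5662 had a median below 1 gene-scaled CPM. All 10 cumulus cell markers had counts, and their sum ran from 51.3 to 83.1 in zygotes and from 36.5 to 100.1 in 2C samples, with 8 of the 10 at a median below 1 gene-scaled CPM.

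Rows with a GC share of 50% or more made up most of the set, 1127 of the 1590, and held 69.7% of its counts. Motifs with a GC share under 50% but not 0 numbered 383 and held 24.4% of the counts, and the 80 motifs of A and T alone held 5.91%. By motif length, 718 rows had 6 letters and 368 had 7 or more, but the 57 rows of 3 letters held 40.9% of the counts, more than the 26.3% of the 6-letter rows. The 10 rows with the most counts held 22.7% and the 100 with the most held 67.1%. In the AT-only class (A)n alone held 39.6%, so that its total follows a few rows. In the class of 3 letters and A and T alone, (ATT)n held 83.02%.

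The position of these units in annotated transcripts differed by class. Perfect runs of at least 20 bases and at least 3 full copies of the same unit were searched. A run was found in a GENCODE transcript for 1137 of the 1590 rows. Units of more than 10 letters were not searched, and chromosome 18 and the mitochondrial genome were not used here. Among runs in coding transcripts, 39.9% of those with a 3-letter unit and 30.5% of those with a 6-letter unit lay in coding sequence, against 1.02% for 2-letter, 1.28% for 4-letter and 0.990% for 5-letter units. Among 3-letter units the share was 51.5% (407 of 791 runs) where the GC share was 50% or more, 14.3% (37 of 259) where it was lower and 1.52% (1 of 66) for A and T alone. These runs describe the annotation, and a count in a row need not come from any of them.

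The share of simple repeats among all repeat counts was lower in 2C embryos than in zygotes, and their amount per gene count overlapped between the stages. In control zygotes the 1590 rows held between 13.9% and 18.8% of repeat counts (median 17.4%, mean 17.2% ± 1.54 SD, n = 10). In control 2C samples they held between 9.04% and 13.7% (median 10.3%, mean 10.9% ± 1.59 SD, n = 9), below every control zygote. In Kdm5b zygotes the share was 15.1% to 17.4% (median 16.6%, n = 10) and in Kdm5b 2C samples 8.80% to 12.2% (median 10.9%, n = 6), again without overlap.
In gene-scaled CPM the same rows were at 54515 to 61534 in control zygotes (mean 58921 ± 2218 SD) and 56376 to 69459 in control 2C samples (mean 60450 ± 3844 SD), which overlap. In the Kdm5b groups they held 56078 to 59449 (mean 58012 ± 1021 SD) and 56254 to 59183 (mean 58094 ± 1184 SD). The log2 ratio of the mean totals between stages was -0.65 in controls and -0.60 in Kdm5b samples with repeat totals, and 0.04 and 0.00 with gene totals.

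**Figure D1:**
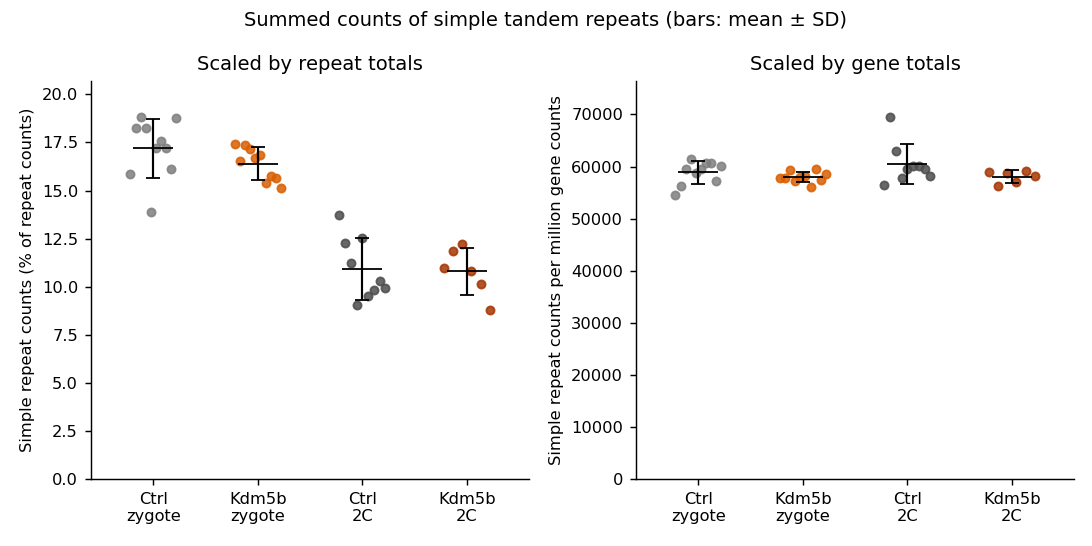
Summed counts of the 1590 simple repeat rows in each sample, on the left as percent of repeat counts and on the right in gene-scaled CPM, with points for samples and bars for the mean ± SD of each group. On the left the 2C samples lie below the zygotes in both injections, and on the right the groups overlap, with 1 control 2C sample at 69459.

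The denominators moved in between. Repeat counts per gene count were 0.309 to 0.424 in control zygotes, where control 2C samples had 0.411 to 0.639, and 0.331 to 0.387 and 0.474 to 0.661 in the Kdm5b groups. The 1349 repeat rows that are neither simple, low complexity nor satellite rows, mostly transposable elements, went from a mean of 263301 gene-scaled CPM in control zygotes to 474599 in control 2C samples. So a simple repeat that kept pace with the genes lost share among repeats, and a direction below holds for the scaling it is given under. Many are given under both scalings, and some under 1 only. Where no scaling is named, a fold change from edgeR is that with TMM over repeats.

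The 3 GC classes did not move alike. The means of the AT-only class differed by less than the SD between samples on the repeat scale, at 8486 ± 621 SD repeat-scaled CPM in control zygotes and 7989 ± 1031 SD in control 2C samples, and on the gene scale went from 2917 ± 202 SD to 4463 ± 685 SD gene-scaled CPM. On the gene scale its control zygotes lay between 2526 and 3212 and its control 2C samples between 3528 and 5227, with no overlap. The Kdm5b samples gave the same picture, 2714 to 3193 in zygotes and 3690 to 5594 in 2C samples.
The class with a GC share of 50% or more was lower in 2C samples on the repeat scale, from a mean of 120347 ± 10303 SD to 75026 ± 11505 SD in controls, and was level on the gene scale, at 41254 ± 1419 SD and 41413 ± 2106 SD. The class in between had means of 43094 ± 4889 SD and 26341 ± 4957 SD repeat-scaled CPM and 14750 ± 896 SD and 14573 ± 2159 SD gene-scaled CPM. Class totals are sums over the members, and no test was run on them.

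**Figure D2:**
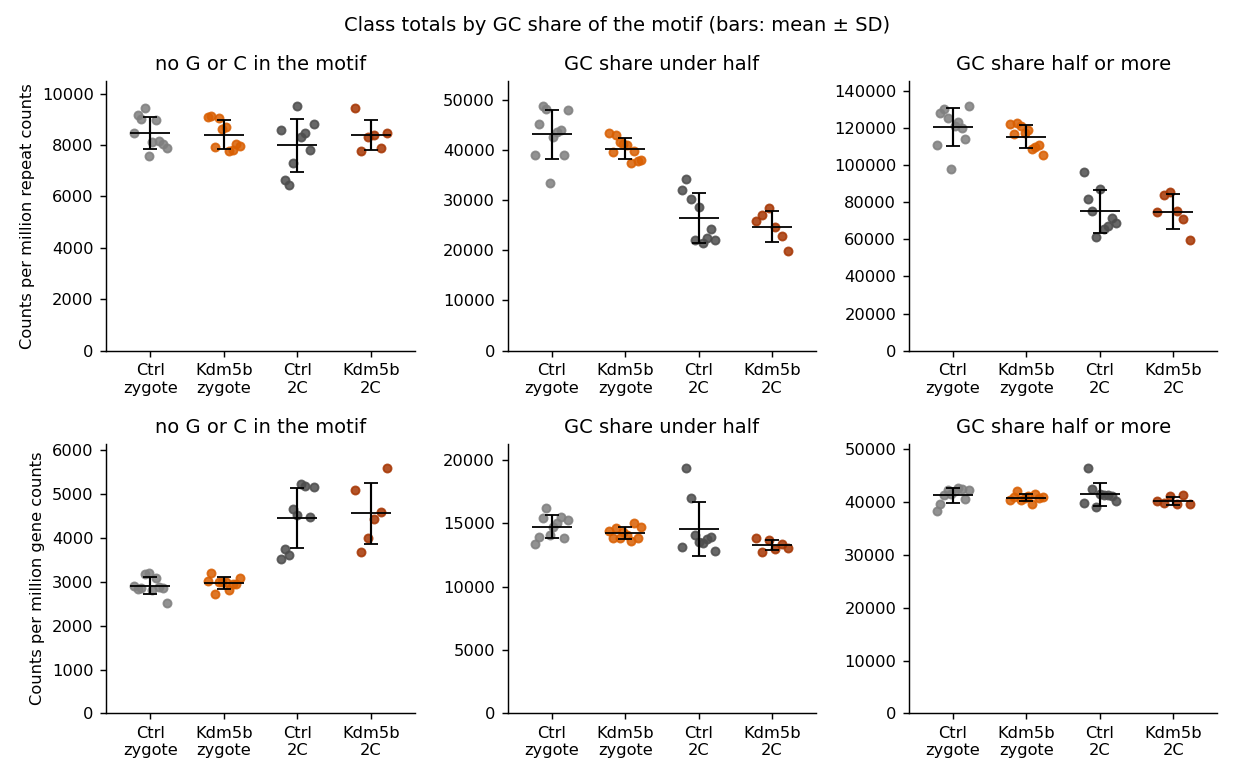
Totals of the 3 GC classes in each sample, in the upper row in repeat-scaled CPM and in the lower row in gene-scaled CPM, with points for samples and bars for the mean ± SD. The AT-only class is level above and higher in 2C samples below, while the other classes fall above and are level below.

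Within the AT-only class the 3-letter motifs moved most. Their total in gene-scaled CPM was 419 to 715 in control zygotes (median 612) and 791 to 2465 in control 2C samples (median 1785), and 520 to 730 and 1013 to 2592 in the Kdm5b groups, without overlap in either. The log2 ratio of their means was 1.44 in controls and 1.32 in Kdm5b samples on the gene scale and 0.71 and 0.66 on the repeat scale, where the groups overlapped. The total of the whole AT-only class rested largely on its 2 largest rows, (A)n and (ATT)n. With all rows its log2 ratio was -0.09 in controls and 0.00 in Kdm5b samples on the repeat scale, and 0.61 and 0.62 on the gene scale. Without (A)n it was 0.14 and 0.15 on the repeat scale and 0.85 and 0.78 on the gene scale. Without (ATT)n it was -0.42 and -0.30 on the repeat scale and 0.26 and 0.31 on the gene scale, where the control groups then overlapped, at means of 2494 ± 164 SD and 2991 ± 185 SD gene-scaled CPM.
Totals by motif length were lower in 2C samples on the repeat scale at every length, by a log2 ratio between -0.40 for 2 letters and -0.74 for 6 letters in controls. On the gene scale the 1-letter and 2-letter rows were higher by 0.27 and 0.29 and the 4-letter and 5-letter rows by 0.13 and 0.14, the 3-letter and 6-letter rows were at -0.01 and -0.05, and those of 7 or more letters at -0.01. In controls the stages overlapped at every length on the gene scale, and on the repeat scale at 1, 2, 4 and 5 letters. In the Kdm5b groups the totals of 2, 4 and 6 letters did not overlap on the gene scale. The log2 ratios of their means were 0.30, 0.15 and -0.13. The 6-letter total was 14888 to 16322 in Kdm5b zygotes and 13728 to 14871 in Kdm5b 2C samples, where controls had 14247 to 17256 and 14135 to 19202.

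Single rows were compared with edgeR's quasi-likelihood test over all repeat rows that passed a filter on low counts, with Benjamini-Hochberg adjustment, and calls took an adjusted p below 0.05 together with a log2 fold change beyond 1 in size. For control 2C samples against control zygotes 1548 of the 1590 rows were tested, 39 were higher and 127 lower in 2C samples when TMM factors came from the repeats. Over all 2635 repeats tested, 3.91% were called higher and 5.65% lower, so that 2.52% of simple repeats were higher, below this background, and 8.20% lower, above it. With TMM factors from the genes, 107 were higher and 69 lower, 6.91% and 4.46%, against 9.56% and 3% of all repeats tested. The median log2 fold change was -0.07 over the simple repeats and 0.06 over all repeats with the first scaling, and 0.23 and 0.36 with the second, so that the change of scaling moved the median of all repeats itself and single rows have to be read against it.
In the Kdm5b samples 1573 rows were tested, of which 42 were higher and 206 lower with TMM over repeats, 2.67% and 13.1%, where 5.26% and 8.72% of all 2740 repeats tested were. With TMM over genes 155 were higher and 97 lower, 9.85% and 6.17%, against 15% and 4.12% of all repeats tested. The medians were -0.13 over simple repeats and 0.04 over all repeats, and 0.28 and 0.45 with the gene scaling.
Over 5 scalings, the repeat and gene totals with and without TMM factors and TMM over repeats that are not simple, 18 rows were called higher and 69 lower in controls under each of the 5, and 23 and 97 in Kdm5b samples. The remaining calls depended on the scaling. Calls under all 5 scalings were not counted over all repeats, so these numbers have no background to be read against. Rows that pass a filter on low counts through 1 group only are bound to differ. In 19 of the 39 higher and 65 of the 127 lower calls of the controls, and in 15 of 42 and 87 of 206 of the Kdm5b comparison, the group with the lower counts had too few samples at the minimum to pass on its own, so the shares are counts and not support for a shift of the class.

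The calls were counted by class, with no test of a difference between classes. With TMM over repeats, the control comparison called 2 AT-only rows higher and 1 lower of 79 tested, 2.53% and 1.27%, where 3.91% and 5.65% of all repeats were. Of 370 rows with a GC share under 50% it called 14 higher and 33 lower, 3.78% and 8.92%, and of 1099 with a GC share of 50% or more 23 higher and 93 lower, 2.09% and 8.46%. With TMM over genes, where the shares of all repeats were 9.56% and 3%, these were 9 higher and 1 lower (11.4% and 1.27%), 31 and 11 (8.38% and 2.97%), and 67 and 57 (6.10% and 5.19%), so that the middle class lay close to all repeats. The medians were 0.18, 0.02 and -0.12 with the first scaling and 0.49, 0.33 and 0.18 with the second, in the same order. Among the rows with a GC share of 50% or more, those that hold a CpG when the motif is repeated had a median of -0.17 (7 higher and 48 lower of 457) and those without one a median of -0.09 (16 higher and 45 lower of 642), or 0.14 and 0.20 with the gene scaling.
By length, 6-letter rows had 13 higher and 71 lower of 704, and 3-letter rows 1 higher and 3 lower of 57, with medians of -0.14 and -0.19, while the medians of the 2-, 4- and 5-letter rows were 0.09, 0.05 and 0.06 and that of rows of 7 or more letters -0.07. The called shares were 1.85% and 10.1% for 6 letters and 1.75% and 5.26% for 3 letters. In the Kdm5b comparison the 6-letter rows had 17 higher and 128 lower of 711, 2.39% and 18.0%. With gene scaling the 6-letter and 3-letter medians were 0.17 and 0.11 in controls, above 0 but still below those of the 2-, 4- and 5-letter rows at 0.39, 0.34 and 0.35 and of the longest rows at 0.24.

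**Figure D3:**
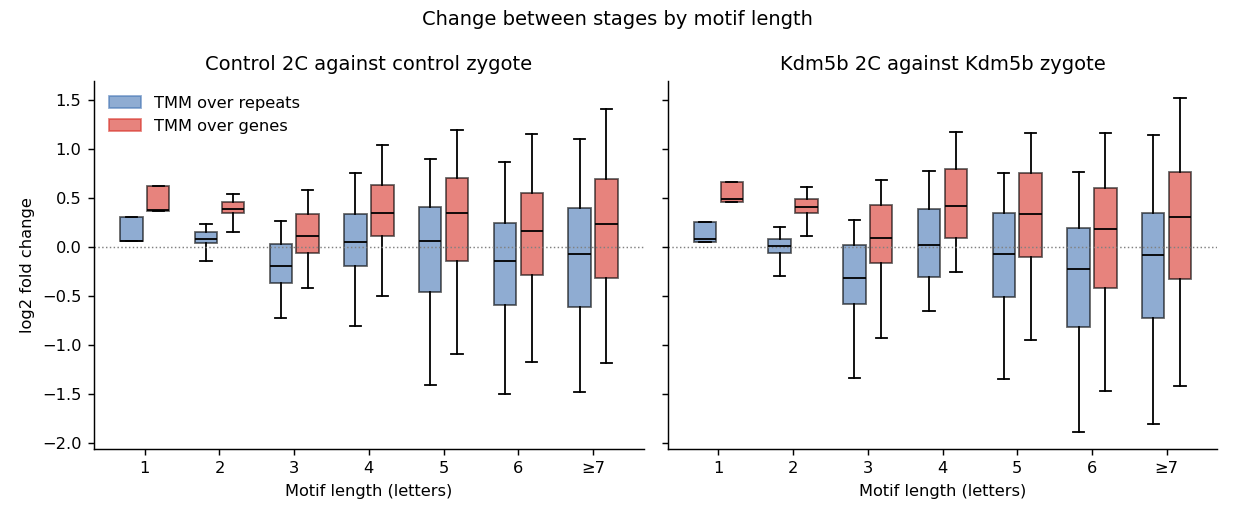
Log2 fold change from zygote to 2C of the tested rows by motif length, in controls and in Kdm5b samples, with TMM factors from repeats (blue) and from genes (red). Boxes span the middle quartiles with the median as a line, and whiskers reach the 5th and 95th percentiles. The medians of the 3- and 6-letter rows lie below those of their neighbours under both scalings.

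Rows with motifs of 1 or 2 letters include the common microsatellites of the genome. None of the 16 passed both thresholds in any comparison under any of the 5 scalings. Without the fold threshold, 12 of the 16 had an adjusted p under 0.05 in edgeR between control stages with TMM over genes. With TMM over repeats 3 did, and with repeat totals 12. Between Kdm5b stages these numbers were 14, 6 and 13. The share of all repeats past the adjusted p alone is not given here, so these counts do not set short motifs apart. In controls their log2 fold changes from zygote to 2C ran from -0.39 for (GC)n to 0.55 for (G)n with TMM over repeats and from -0.08 for (GC)n to 0.86 for (G)n with TMM over genes. With the gene scaling 15 of the 16 were above 0, and with repeat totals and no TMM factors 1 of the 16 was. 
(CA)n had 776 to 1069 gene-scaled CPM in control zygotes (median 931) and 1091 to 1385 in control 2C samples (median 1225), and 887 to 1055 and 1192 to 1331 in the Kdm5b groups. Its 2C samples were all above its zygotes on that scale, by a log2 fold change of 0.48 with TMM over genes and 0.17 with TMM over repeats, and by -0.31 with repeat totals. (TG)n, which is its reverse complement, was at 847 to 1147 (median 1024) and 1112 to 1350 (median 1219) in controls.
(A)n, to which tails of messenger RNA can add where they were not trimmed away, had 1151 to 1589 (median 1270) in control zygotes and 1320 to 1929 (median 1492) in control 2C samples, which overlap. (GC)n, which holds CpG in every unit, had the lowest log2 fold change of the 16 in both stage comparisons under each of the 5 scalings, with 52.6 to 63.9 (median 57.8) in control zygotes and 36.8 to 69.2 (median 52.4) in control 2C samples. The same unit in the other phase, (CG)n, did not share this place, with log2 fold changes of 0.06 with TMM over repeats and 0.35 with TMM over genes.

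The rows with the most counts also overlapped between the stages on the gene scale. (AGC)n had 1876 to 2469 gene-scaled CPM in control zygotes (median 2046) and 1645 to 2884 in control 2C samples (median 1923). (GGC)n had 1411 to 1731 (median 1544) and 1424 to 1956 (median 1716), and (GCC)n 1256 to 1476 (median 1390) and 1171 to 1504 (median 1446). All 3 overlapped between the stages on the gene scale, and their log2 fold changes were -0.20, -0.10 and -0.21 with TMM over repeats and 0.11, 0.21 and 0.09 with TMM over genes, so that the sign turned with the scaling. In repeat-scaled CPM (AGC)n overlapped in controls, while (GGC)n and (GCC)n were lower in all control 2C samples than in any control zygote. The log2 ratios of their means on that scale were -0.67, -0.58 and -0.68.
Among rows with a GC share under 50%, those of the unit of C, T and T were the largest and did not move together. (TTC)n was at 994 to 1493 gene-scaled CPM in control zygotes (median 1304) and at 484 to 1221 in control 2C samples (median 567), where 1 sample lay at 1221 and the others at or under 851. Its log2 fold change was -1.17 ± 0.17 SE (adjusted p = 1.1e-05) with TMM over repeats and -0.86 with TMM over genes, under the fold threshold. (CTT)n went from 1271 to 1634 (median 1425) to 987 to 2045 (median 1123), and (TCT)n from 599 to 882 (median 719) to 567 to 1097 (median 688), with log2 fold changes of -0.41 and -0.21 in the first fit.

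(ATT)n was the row that carried the rise of the 3-letter AT-only class. It had 277 to 525 gene-scaled CPM in control zygotes (median 436) and 667 to 2315 in control 2C samples (median 1640), and 367 to 563 (median 492) and 868 to 2438 (median 1511) in the Kdm5b groups. On this scale every 2C sample was above every zygote, and the 2C samples differed among themselves by more than the zygotes did. In repeat-scaled CPM the control groups overlapped, at 867 to 1527 in zygotes and 1189 to 3952 in 2C samples, and the Kdm5b groups, at 1072 to 1607 and 1801 to 3686, did not. The log2 fold change in controls was 1.56 ± 0.18 SE (adjusted p = 4.6e-07) with TMM over repeats and 1.89 ± 0.20 SE with TMM over genes, and in Kdm5b samples 1.34 ± 0.15 SE (adjusted p = 1.3e-07) and 1.75 ± 0.15 SE. It was positive under all 5 scalings in both and under the fold threshold in 1 of them, at 0.95 with repeat totals in Kdm5b samples.
(TAT)n, the same unit in another phase, fell. It had 65 to 96.4 in control zygotes (median 84.1) and 21.8 to 45.9 in control 2C samples (median 32.6), and 67.5 to 100.7 and 28.1 to 35.6 in the Kdm5b groups, with no overlap. Its log2 fold change in controls was -1.52 ± 0.11 SE (adjusted p = 3.8e-10) with TMM over repeats and -1.21 ± 0.12 SE with TMM over genes.
The third phase (TTA)n and the phases of the other strand, (AAT)n, (ATA)n and (TAA)n, were not called. (TTA)n had 13.1 to 31.4 in control zygotes (median 24.5) and 21.3 to 39.5 in control 2C samples (median 23.7), and (AAT)n 20.4 to 33.2 (median 27.5) and 26.4 to 38.8 (median 32.3). Their log2 fold changes were -0.11 and 0.04 with TMM over repeats, and 0.18 and 0.35 with TMM over genes.

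Of the rows that fell, 4 others had the smallest p in the control comparison. (CCCCA)n had 33.7 to 52.7 gene-scaled CPM in control zygotes (median 40.0) and 4.18 to 12.9 in control 2C samples (median 8.36), with a log2 fold change of -2.57 ± 0.16 SE (adjusted p = 5.5e-11) and of -2.24 with TMM over genes. (CGCAGC)n went from 39.8 to 61.7 (median 48.7) to 3.18 to 13.8 (median 8.46), a log2 fold change of -2.81 ± 0.21 SE (adjusted p = 3.8e-10). (GCTCC)n went from 93.2 to 181.9 (median 147) to 5.81 to 41.4 (median 27.5), with -2.68 ± 0.205 SE (adjusted p = 6.6e-10).
(TCCTCC)n, which holds the same letters as (TCC)n with the unit written out as a pair, went from 144 to 254 (median 194) to 46.7 to 79.0 (median 51.0), with -1.92 ± 0.16 SE (adjusted p = 1.8e-09). In each of these the control 2C samples lay below all control zygotes, and the Kdm5b groups did as well. All 4 were called lower in both stage comparisons under each of the 5 scalings, and with TMM over genes in controls they were between -2.48 and -1.61.
In the Kdm5b comparison the 5 with the smallest p were (CGCAGC)n at -2.97 ± 0.14 SE (adjusted p = 7.8e-13), (GGAGCA)n at -1.502, (CCCCA)n at -2.38, (TTTCCTC)n at -2.38 and (CATCCT)n at -1.44. (TTTCCTC)n is the largest row of 7 or more letters, with 275 to 406 in Kdm5b zygotes (median 309) and 56.0 to 101.4 in Kdm5b 2C samples (median 74.5). (GGAGCA)n had 59.6 to 82.4 (median 73.9) and 26.6 to 34.3 (median 31.9) there. In controls it had 62.2 to 90.5 (median 74.2) and 35.2 to 107.7 (median 46.6), which overlap, with a log2 fold change of -0.73 that was not called.

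The rows that rose most were small. (TGGGGCAGC)n had 0 to 16 estimated counts in control zygotes (median 3.5) and 31 to 563 in control 2C samples (median 230), and 0 to 15 (median 3.5) and 32 to 483 (median 192) in the Kdm5b groups. In gene-scaled CPM these were at most 0.975 in control zygotes, against 3.56 to 43.7 in control 2C samples, so that the stages were apart in both injections and the 2C samples spread widely. Its fitted log2 fold change was 5.52 ± 0.58 SE in controls and 5.31 ± 0.54 SE in Kdm5b samples, and 4.93 or more under each of the 5 scalings. The run in Gm6507 shown above was the only run of its unit found in the annotated transcripts, within the length and copy limits given above. The gene counts hold no row named Gm6507.
(TGTGGA)n had 0 to 15 estimated counts in control zygotes (median 0) and 19 to 261 in control 2C samples (median 64), a fitted log2 fold change of 5.65 ± 0.73 SE, and it was left out of the Kdm5b fit by the filter on low counts, where it had 0 to 4 in zygotes and 6 to 164 in 2C samples. (TCCTTTT)n had 0 to 36 (median 9.0) and 18 to 238 (median 95) in controls, with 3.81 ± 0.53 SE and 2.72 in Kdm5b samples, and its groups overlapped in gene-scaled CPM. In control zygotes these 3 rows reached the minimum of the filter in 3, 1 and 4 of the 10 samples, where 9 samples were needed, so that they passed only with the 2C samples, where they are high, and no p is given for them. A fitted fold change of rows this close to 0 in zygotes depends on the prior count.
(GGCTGT)n rose from 1.95 to 6.73 gene-scaled CPM in control zygotes (median 4.78) to 12.1 to 56.1 in control 2C samples (median 16.2), with 2.05 ± 0.29 SE (adjusted p = 8.2e-06), and 12 of the 13 perfect runs of its unit were in coding sequence. In the Kdm5b comparison (GTTTTTT)n rose by 1.01 ± 0.15 SE (adjusted p = 7.3e-06) and (CAGATA)n by 2.55 ± 0.40 SE (adjusted p = 2.2e-05). (CTTCTCTT)n, which reached the minimum in 0 Kdm5b zygotes and passed through the 2C samples alone, had 0 to 5 estimated counts in Kdm5b zygotes and 12 to 49 in Kdm5b 2C samples, a fitted log2 fold change of 3.57 ± 0.60 SE. The call of (GTTTTTT)n stood just past the fold threshold and was lost under several alternatives, with a lowest value of 0.66 with repeat totals. (CAGATA)n was not called in controls, at 1.28, where its samples ran from 0 to 10.2 gene-scaled CPM in zygotes and from 0.689 to 28.0 in 2C samples.

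The control and Kdm5b stage comparisons share no sample, although they share the days of preparation and the thawing of the 2C embryos. Of the 127 rows called lower in controls, 108 were called lower in Kdm5b samples too, which is 85.04% of the first list and 52.4% of the second. Of the 39 called higher, 18 were, 46.2% and 42.9%. With TMM over genes 50 of the 69 lower rows and 62 of the 107 higher rows were shared. None was called in opposite directions under either scaling. With TMM over repeats, 65 of the 127 and 87 of the 206 lower rows passed the filter only through the zygotes, where they are high. Among the higher rows 19 of 39 and 15 of 42 passed only through the 2C samples. Such rows are bound to share a direction, and the overlap was not counted over all repeats, so it is not support for a trait of simple repeats. Over the 1535 rows tested in both, the log2 fold changes had a Pearson's r of 0.81, across rows, which are not independent and share the libraries of each group.

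**Figure D4:**
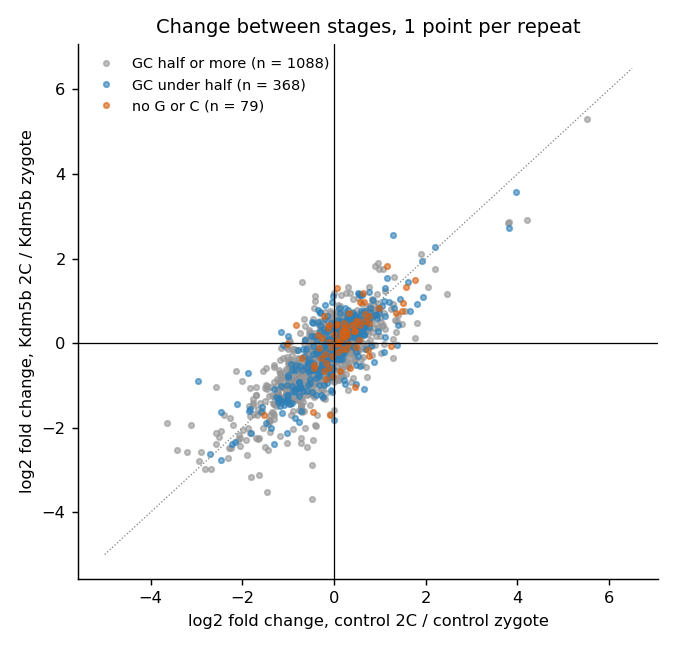
Log2 fold change from zygote to 2C of 1535 rows with TMM over repeats, in controls (horizontal) and in Kdm5b samples (vertical), with a point for each row and colour for the GC class, and a dotted line where both are equal. Rows far from 0 lie in the lower left and upper right corners, and the AT-only rows lie mostly near or above 0.

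The estimated counts of rows that share a unit, by rotation or on the other strand, often changed differently, with the division of shared reads among them untested. The 1590 rows held 538 different units, and 266 units had at least 2 rows tested in the control comparison. The median SD of the log2 fold change within a unit was 0.58, against an SD of 0.80 over all tested rows. In 98 of these units at least 1 row was called, in 31 at least 2 were, and in 4 all were. Among the 31, the called rows went in 1 direction in 20 and in both directions in 11. With TMM over genes these counts were 109, 28, 3, 13 and 15, and 10 units had rows called in both directions under both scalings. These counts include rows that passed the filter only through the stage where they are high, and such rows are bound to be called in that direction. With TMM over repeats this held for 19 of the 39 higher and 65 of the 127 lower control calls. How many of them lie in these units was not counted.
The unit of (ATT)n and (TAT)n was the largest of the 10 in counts. The next was that of (GAAAGA)n, which was higher at 1.92 ± 0.37 SE (adjusted p = 0.00035), and (TCTCTT)n on the other strand, which was lower at -2.47 ± 0.25 SE (adjusted p = 4.3e-08). The 5-letter unit of (GAGCA)n and (GCAGA)n, both higher at 1.06 and 2.02, also held (AGAGC)n and (CTGCT)n, both lower at -1.70 and -1.41. Their mean counts were low, at 33.8, 14.6, 40.2 and 77.2 in this order. In the Kdm5b comparison 271 units had at least 2 rows tested, and rows were called in both directions in 6 of them with TMM over repeats and in 13 with TMM over genes.

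**Figure D5:**
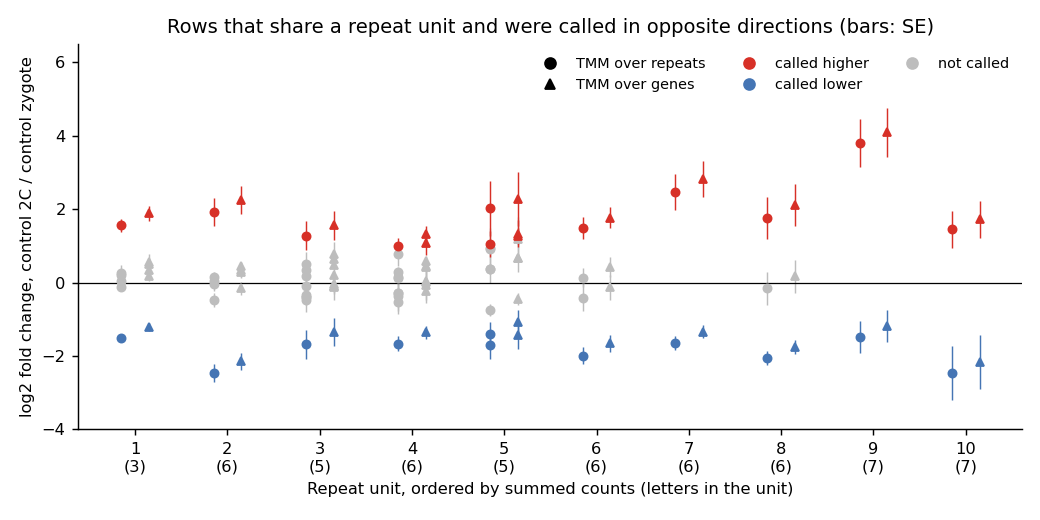
The 10 units with rows called in both directions under both scalings, ordered by their summed counts, with the number of letters in brackets. Rows that passed the filter through 1 stage only were not taken out. Each point is a row with its log2 fold change from control zygote to control 2C and its SE, circles for TMM over repeats and triangles for TMM over genes, red for higher, blue for lower and grey for not called.

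With TMM over repeats, 8.20% of simple repeats were called lower, and 2.02% of the rows that are neither simple, low complexity nor satellite rows. Of 1041 such other rows tested, the control comparison called 59 higher and 21 lower with TMM over repeats, with a median log2 fold change of 0.19, and 140 and 10 with TMM over genes, with a median of 0.49. With TMM over genes 69 of 1548 simple repeats were lower. Of the 127 simple repeats called lower with TMM over repeats, 65 passed the filter only through the zygotes, where they are high. This was not counted for the other rows, so these shares are counts and not support for a difference between kinds of repeat. Of 13 satellite rows tested, 4 were higher and 0 lower under either scaling. The total of all 15 satellite rows, however, was lower in 2C samples on the repeat scale, as was that of simple repeats. The log2 ratio of its means was -0.59 in controls and -0.68 in Kdm5b samples, without overlap in either. On the gene scale it was 0.10 and -0.06, with overlap in both. The 3 low complexity rows, A-rich, GA-rich and G-rich, are the closest to simple repeats in sequence, and none of them was called. Their total held a mean of 14964 ± 804 SD gene-scaled CPM in control zygotes and 18128 ± 2234 SD in control 2C samples, which overlap. On the repeat scale the log2 ratio of the mean totals was -0.43 in controls and -0.40 in Kdm5b samples. There the stages overlapped in controls only.

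Injection of Kdm5b mRNA left the simple repeats without a call at either stage. In zygotes 1542 rows were tested and 0 were called, as were 0% of all 2616 repeats, with edgeR and with DESeq2, and 87 of the rows had an unadjusted p under 0.05. The class totals of Kdm5b and control zygotes overlapped in all 3 GC classes under both scalings. The smallest p was that of (AGAA)n, with 35.2 to 75.4 gene-scaled CPM in control zygotes (median 58.9) and 35.1 to 48.5 in Kdm5b zygotes (median 39.9), which overlap, and a log2 fold change of -0.49 ± 0.11 SE (adjusted p = 0.31).
In 2C samples 1518 rows were tested and 0 were called, with edgeR and with DESeq2, as were 0% of all 2692 repeats, and 110 rows had an unadjusted p under 0.05. The median log2 fold change over the rows was -0.07 with TMM over repeats and 0.04 with TMM over genes. The smallest p was that of (CAAGAG)n, with 40.8 to 90.1 gene-scaled CPM in control 2C samples (median 52.7) and 24.9 to 41.1 in Kdm5b 2C samples (median 32.5), which overlap in a narrow range. Its log2 fold change was -0.79 ± 0.18 SE (adjusted p = 0.27).
The names of the libraries end in an index number, which was divided here into strips of 8. The labels do not say that these strips mark batches. The 2C groups were spread unevenly over them. Strip 11 held 3 control and 5 Kdm5b samples, and strip 12 held 6 control samples and 1 Kdm5b sample. With the strip as a covariate 15 of 1518 rows were called, all lower in Kdm5b samples, which is 0.988%, where 0.594% of all repeats tested were lower and 0% higher. With TMM over genes 2 were, 0.132% against 0.0743%, (AGTAGC)n at -1.03 ± 0.19 SE (adjusted p = 0.024) and (CTTCTG)n at -1.08 ± 0.24 SE (adjusted p = 0.044). Within strip 11 alone 14 rows were called lower, 0.924% against 0.509% of all repeats tested, and 0 higher, against 0.0727%. Of the 14, 7 were among the 15, and (CAAGAG)n was one of the 14 at -1.23 ± 0.20 SE (adjusted p = 0.036). The 3 control samples of strip 11 include control 2C sample 2. It had 90.1 gene-scaled CPM for (CAAGAG)n, where the other control 2C samples had 40.8 to 60.6. For (GGAGCA)n, also one of the 14, it had 107.7, where the others had 35.2 to 70.8. The control pools of blastomeres were all in strip 12 and the Kdm5b pool was in strip 11. Strip 12 had too few Kdm5b samples for a value. Zygotes had equal numbers of both groups in strips 8, 9 and 10, and 0 rows were called within any of them or with the strip as a covariate.
A fit of all 35 samples called 4 rows lower in Kdm5b 2C samples, which were (ACAGTAA)n at -1.69, (GAGGCG)n at -1.65, (TCTCTTC)n at -1.69 and (TGGGGC)n at -1.19, 0.252% against 0.196% of all repeats. A fit with no filter called 2, 0.126% against 0.0958% of all repeats lower and 0.0137% higher, which were (GCCGCG)n at -1.25 and (TCTCTTC)n at -1.69. These rows were named after their values were seen.

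Whether the change between stages differed with the injection was tested as an interaction over all 35 samples. All 1590 rows were tested and 0 were called at an adjusted p under 0.05 with edgeR, as were 0% of all 3065 repeats, and 104 of the rows had an unadjusted p under 0.05. DESeq2 called 1 row, (ACAGTAA)n, at -1.81 ± 0.44 SE (adjusted p = 0.039), 0.0903% of the rows against 0.102% of all repeats lower, and edgeR gave it an adjusted p of 0.22. So (GGAGCA)n, called in the Kdm5b stage comparison and not in that of controls, was not shown to differ between them, with a difference of -0.78 (adjusted p = 0.35). With no filter on low counts edgeR called 13 rows, 1 higher and 12 lower, 0.0629% and 0.755% against 0.699% and 0.501% of all repeats, among them (GGAGCA)n at -0.77 (adjusted p = 0.021).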

How the data were processed

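RNA of single zygotes, 2-cell embryos or pooled blastomeres was sequenced with a SMART-Seq Stranded kit. The authors trimmed reads with fastp 0.21.0, poly-X tails included, which touches 1-letter motifs, aligned them with STAR 2.7.3a to mm10 (GRCm38) and deposited gene counts from featureCounts 1.5.1. The authors deposited estimated counts per repeat name from SalmonTE, from which they had removed 2 repeats that match Kdm5b, (T)n among them. Of the values of the 1590 rows 25.659% were not whole, and all were rounded. No other column was present.

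Rows were summed by motif length and GC share and scaled by repeat totals or by gene totals without Kdm5b. Tests used edgeR 4.0.16 (quasi-likelihood, R 4.3.3) on the samples of the groups compared, filterByExpr with a minimum count of 10, TMM over repeats, and Benjamini-Hochberg adjustment over all repeats tested, and were tested on simulated data. Calls took an adjusted p below 0.05 together with a log2 fold change beyond 1 in size, and for the interaction the adjusted p alone. Named repeats were all motifs of 1 or 2 letters, the 3 with the most counts in each GC class, and per comparison the 5 higher and 5 lower with the smallest p among calls, and, in a comparison with 0 calls, the repeat of smallest p. Alternatives were DESeq2 1.42.0, other scalings and filters, a strip or replicate term, and samples left out. The members and lists were chosen with earlier results of these data known. The labels name biological replicates without saying which came from the same mouse.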

Additional observations from a re-analysis of the deposited data

Results flagged for a closer look

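In 204 sets of samples of 1 group, each for 1 repeat or class, the highest or lowest sample was set against the others, and in 14 it stood apart by Dixon's criterion, where chance gives about 1 in 20. All values are counts per 1000000 gene counts without Kdm5b. The control 2C sample 2 was highest in 7 of them. It had 69459 for all simple repeats, where the others had 56376 to 62951, 46350 for motifs with a GC share of 50% or more (others 39011 to 42336) and 27829 for 3-letter motifs (others 22836 to 24884). It had 487 for (CT)n (others 258 to 366), 1221 for (TTC)n (others 484 to 851), 90.1 for (CAAGAG)n (others 40.8 to 60.6) and 107.7 for (GGAGCA)n (others 35.2 to 70.8).

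The Kdm5b zygote 8 was highest for (GA)n at 239 (others 199 to 217) and for (TC)n at 487 (others 406 to 446), which share a unit. Among rows with few counts, (TGTGGA)n was at 1.00 in control zygote 5 (others at most 0.227) and at 25.4 in control 2C sample 4 (others 1.90 to 13.5). (TCCTTTT)n was at 2.28 in control zygote 4 (others at most 0.730), (GGCTGT)n at 56.1 in control 2C sample 3 (others 12.1 to 28.3), and (CTTCTCTT)n at 4.62 in Kdm5b 2C sample 5 (others 1.25 to 2.26).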

How the results depend on the processing

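The zygote comparison of Kdm5b and control called 0 rows under each alternative run. In 2C samples 0 rows were called with edgeR and TMM over repeats, 4 in a fit of all 35 samples, 15 with the index strip as covariate, 2 with no filter and, added after seeing the data, 14 within strip 11 and 2 with the strip and TMM over genes. The 166 calls between control stages became 104 among rows with a mean of at least 50, 331 with repeat totals and 367 with no fold threshold, and the 248 between Kdm5b stages became 138 and 617 with the first and last of these. The interaction gave 0 calls, 1 with DESeq2 and 13 with no filter. The log2 ratio of the totals went from -0.65 to 0.037 in controls and from -0.60 to 0.0020 in Kdm5b samples with gene totals. Fewer rows were tested at a mean of 50, and the cause of these differences was not tested. Shares of all repeats are not given for these stage counts, nor for those below with samples left out or a replicate block. A change of these counts cannot be told from a change over all repeats. Leaving out each sample gave 0 to 0 calls at both stages for the injection, 142 to 178 between control stages and 230 to 274 between Kdm5b stages, and with TMM over genes 159 to 185 and 233 to 278. Of the named repeats, the 16 called between control stages and the 17 called between Kdm5b stages kept their sign over the 5 scalings, while 18 of 24 and 16 of 22 that were not called changed sign.

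With the replicate number as a block, 0 rows were called in zygotes, 0 in 2C samples, 152 between control stages, 236 between Kdm5b stages and 0 for the interaction. Correlations between same-numbered samples ran from -0.16 to 0.16, and the numbers were not treated as a pairing. Rows near the minimum mean count of 10 are limited by depth.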
